A study of Mus musculus with 9 samples.

Results

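The cadherins and protocadherins were taken as every gene whose symbol in the platform annotation is Cdh followed by a number, or begins with Pcdh. Of 19937 genes with a probe set (a group of short array probes for 1 gene) that names no other gene, 57 met this rule. They comprise 23 cadherins and 34 protocadherins. By structure, 5 are type I classical cadherins, 13 type II classical cadherins, 5 other cadherins, 9 delta protocadherins, 22 protocadherins of the beta cluster and 3 other protocadherins that lie outside the clusters. Their RNA was measured in mouse embryonic fibroblasts, connective tissue cells grown from embryos, that differed in Cdkn1b. This gene encodes p27, a protein that holds back the cell cycle. There were 3 genotypes, each on 3 Affymetrix arrays, 9 in all: wild type cells (WT), cells with p27CK (CK), and knockout cells labelled p27KO (KO). All cells were grown with 10% serum and then held for 72 h without it, and the labels call every group quiescent. The labels give p27CK by name only, which in published work is a p27 that does not bind cyclins and their kinases.

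Cadherins are surface proteins that hold neighbouring cells together through calcium-dependent binding of their outer repeats. Classical cadherins are tied by catenins to the actin cytoskeleton, and fibroblasts are known for N-cadherin and cadherin-11 rather than the E-cadherin of epithelia. Protocadherins have related outer repeats but different cytoplasmic tails. The delta protocadherins act in cell sorting and movement, and the clustered alpha, beta and gamma protocadherins are best known for giving single neurons distinct surface identities.

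Values are log2 levels, so a difference of 1 is 2-fold, and differences between genotypes were taken within a probe set. Across probe sets, levels served to filter genes, choose 1 probe set per gene, name the brightest markers and sum marker levels. Genes with a mean level of at least 7.24 over the 9 arrays, the 40th percentile of genes, were tested. A gene was called at a limma adjusted p (Benjamini-Hochberg over all 11962 tested genes) under 0.05. Of the 57 genes, 33 passed this filter, or 57.9%, against 60% of all genes. The other 24 had means from 5.12 to 7.17, and the arrays carry no detection calls, so a level near or below 7.24 is not shown to be above background. A difference from such a level is one of measured values and may understate the true difference. Nearest the filter were Cdh15 at 7.25 and Cdh4 at 7.27 inside it, and Pcdhb12 and Cdh22, both at 7.17, outside it. Some genes passed only through the genotype in which they were high and so had to differ. For that reason counts are also given for all 57 genes without the filter.

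Cdkn1b itself followed the KO label, with 7.44, 7.25 and 7.45 in KO against 11.42, 11.50 and 11.47 in WT and 10.99, 11.14 and 11.16 in CK. Array medians lay between 7.29 and 7.40. Arrays correlated at 0.995 to 0.998 within a genotype and at 0.964 to 0.975 between genotypes. Of 14 fibroblast markers, all 14 were above 7.24 in WT and CK and 13 in KO, but 10 of the 14 fell and 1 rose in KO versus WT, where 24.6% and 26.6% of all tested genes did, with a median of -0.36. In CK versus WT, 4 fell and 4 rose, with a median of -0.08. Their summed level was 16.62 to 16.71 in WT, 16.61 to 16.69 in CK and 16.36 to 16.38 in KO. The brightest were vimentin (Vim), with WT, CK and KO means of 13.92, 13.85 and 14.01, fibronectin (Fn1) with 13.65, 14.15 and 13.94, and decorin (Dcn) with 13.32, 13.87 and 12.88. Whether a genotype's 3 arrays represent different embryos or cultures is not stated in the labels. All p-values thus reflect array-to-array spread alone, possibly technical, and genotype cannot be told apart from culture. The extraction protocol names wild-type or delta51 mice for all samples and does not say which genotype delta51 is.

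Most of the tested cadherin and protocadherin genes differed between genotypes, as did most tested genes. In KO versus WT, 5 of 33 were called higher and 21 lower, where 26.6% of all tested genes were called higher and 24.6% lower. The median difference of the 33 was -0.36, against 0.01 over all tested genes. In CK versus WT, 8 were called higher and 20 lower, where all tested genes gave 30.7% and 32.1%, and the median was -0.52 against -0.01. In CK versus KO, 14 were called higher and 14 lower, with 29.5% and 32.7% over all tested genes, and the medians were 0.03 and -0.02. The mutants share the WT arrays as their control, so their counts are not independent of each other.

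Without the filter, 6 of all 57 genes were called higher and 25 lower in KO versus WT, against 17.2% and 16.4% of all 19937 genes. In CK versus WT the counts were 10 higher and 29 lower, against 20.7% and 21.6%. In CK versus KO they were 18 and 19, against 19.9% and 21.6%. Of the 33 tested genes, 19 were called in all 3 comparisons, where 27.2% of all tested genes were. One gene, the muscle cadherin Cdh15, was called in none, against 20.3% of all tested genes. Its means were 7.24, 7.22 and 7.30 in WT, CK and KO. Of all 57 genes, 23 had no overlap of arrays between any of the 3 genotypes, 19 of them among the tested genes. Over all genes this held for 22.8% without the filter and 34.7% of those tested. The order of these 23 varied: CK was highest in 6 with KO lowest and in 2 with WT lowest, WT was highest in 6 with CK lowest and in 5 with KO lowest, and KO was highest in 4, all with CK lowest.

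Among the type I classical cadherins, which join epithelia, mesenchyme and muscle, the largest difference was in Cdh3 (P-cadherin, a cadherin of basal epithelial layers). Cdh3 read 7.99, 7.97 and 7.99 in WT, 10.85, 10.84 and 10.64 in CK, and 7.24, 7.07 and 7.29 in KO. Every CK array lay far above all the others, and the KO arrays lay below WT near the filter level. Cdh3 was 6.92-fold higher in CK than in WT (log2 difference 2.79 with SE 0.07, limma adjusted p 4.88e-10) and fell by 0.79 in KO (limma adjusted p 7.85e-06). Of 18 epithelial markers, 6 passed the filter. Beside Cdh3, WT, CK and KO means were 7.52, 8.82 and 7.30 for the keratin Krt19 and 7.67, 7.76 and 7.64 for Krt8. In CK versus WT, 2 of the 6, Cdh3 and Krt19, were called higher and 0 lower, with a median of 0.05. Over all tested genes 30.7% were called higher and 32.1% lower. The summed level of the 18 markers was 11.87 to 12.01 in CK, 11.06 to 11.15 in WT and 11.03 to 11.07 in KO. This sum includes Cdh3 and Cdh1, so it is not separate from the Cdh3 result. The part of epithelial cells in the Cdh3 result was not tested. In bulk RNA, fewer cells of a type and less RNA per cell cannot be told apart.

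Cdh2 (N-cadherin, the classical cadherin of mesenchyme and neurons) was also highest in CK. It read 11.42, 11.32 and 11.25 in CK, 10.19, 10.23 and 10.41 in KO, and 9.98, 10.15 and 9.24 in WT. The genotypes did not overlap, although WT replicate 3 lay well below the other WT arrays. Cdh2 rose 2.91-fold in CK versus WT (log2 difference 1.54 with SE 0.19, limma adjusted p 4.07e-05) and 2.08-fold in CK versus KO (limma adjusted p 0.000614). Its KO versus WT difference of 0.48 was not called (limma adjusted p 0.0546), and it moved with the WT arrays left out: without WT replicate 2 it was 0.66 with a limma adjusted p of 0.0144, and without WT replicate 3 it was 0.21 with a limma adjusted p of 0.0811. Without WT replicate 3 and KO replicate 3 together it was 0.14 with a limma adjusted p of 0.198. E-cadherin (Cdh1), the cadherin of epithelia, was dim in every genotype. It read 6.77, 6.72 and 6.82 in WT, 6.70, 6.65 and 6.69 in CK, and 7.57, 7.47 and 7.49 in KO, so its KO arrays were the highest, only just above the filter level. Without the filter Cdh1 was called higher in KO than in WT, by 0.74 (limma adjusted p 1.07e-06). In the RefSeq gene order of assembly GRCm38.p6, Cdh1 and Cdh3 are neighbours on chromosome 8, and the highest genotype was KO for Cdh1 and CK for Cdh3. Cdh4 (R-cadherin), close to the filter, fell by 0.20 in KO and by 0.18 in CK.

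Of 13 type II classical cadherins, only Cdh11, Cdh18 and Cdh24 passed the filter. Cdh11 (cadherin-11, the mesenchymal cadherin of fibroblasts and osteoblasts) read 13.31, 13.45 and 13.41 in WT, 12.76, 12.79 and 12.75 in CK, and 12.24, 12.24 and 11.65 in KO. The 3 genotypes were fully separate in that order, and KO replicate 3 lay below its group. Cdh11 was 2.54-fold lower in KO than in WT (log2 difference -1.35 with SE 0.13, limma adjusted p 1.19e-05) and 1.54-fold lower in CK (limma adjusted p 0.00205). A further 3 probe sets carry Cdh11 together with 2 clone genes, so they were not assigned to it. Their KO versus WT differences were -0.27, -0.23 and 0.01. The fibroblast markers had the median given above of -0.36 in KO versus WT, and their part in the Cdh11 result was not tested.

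Cdh18, a cadherin of the nervous system, read 8.53, 8.73 and 8.15 in WT, 8.07, 8.18 and 8.15 in CK, and 6.26, 6.22 and 6.09 in KO. The KO arrays stood apart below the filter level, while WT and CK overlapped. The measured KO versus WT difference was -2.28 (SE 0.12, limma adjusted p 7.97e-08), and a second, dimmer Cdh18 probe set differed by -0.53. The small CK versus WT difference of -0.34 (limma adjusted p 0.0325) was not called without WT replicate 1 or 2 or without any 1 of the CK arrays, where it ranged from -0.36 to -0.21. Cdh24 read 8.80, 8.88 and 8.95 in CK, against 8.03, 8.03 and 8.01 in WT and 7.80, 7.63 and 7.91 in KO. CK was highest on every array, 1.81-fold above WT (limma adjusted p 2.25e-06), but a second Cdh24 probe set differed by only 0.03. The Cdh24 fall in KO of 0.24 (limma adjusted p 0.0166) was not called without KO replicate 2, at -0.17.

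The remaining type II cadherins were dim and are given as values. Cdh5 (VE-cadherin, the cadherin of endothelium) had means of 7.18 in WT, 6.59 in CK and 6.64 in KO. Cdh10, a neuronal cadherin, was 6.09, 6.63 and 6.05. Cdh12, with means of 5.60, 5.46 and 5.49, differed by at most 0.14. The other 7 of this type, Cdh6, Cdh7, Cdh8, Cdh9, Cdh19, Cdh20 and Cdh22, were called in no comparison even without the filter.

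Cdh13 (T-cadherin, which is anchored in the membrane by a lipid and has no cytoplasmic tail) was higher in both mutants. It read 9.19, 9.04 and 8.89 in WT, 11.44, 11.70 and 11.56 in CK, and 11.10, 11.07 and 11.03 in KO. All 6 mutant arrays exceeded every WT array, and CK also exceeded KO. The rise was 5.75-fold in CK (log2 difference 2.52 with SE 0.09, limma adjusted p 2.45e-09) and 4.07-fold in KO (2.02, SE 0.09, limma adjusted p 1.49e-08). Cdh16 (kidney-specific cadherin) had the opposite order, with 8.54, 8.45 and 8.43 in WT, 6.83, 6.74 and 6.77 in CK, and 7.02, 6.92 and 7.02 in KO. Both mutants fell to below the filter level, by 1.69 in CK and by 1.48 in KO (limma adjusted p 2.05e-09 and 6.05e-09).

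Cdh26, an atypical cadherin that did not pass the filter, was likewise highest in WT, with 8.08, 8.05 and 8.11 there, 6.46, 6.64 and 6.58 in CK, and 6.48, 6.26 and 6.34 in KO. Only the WT arrays lay above the filter level. Cdh17 (liver-intestine cadherin) read 7.46, 7.42 and 7.33 in WT, 6.93, 6.87 and 6.83 in CK, and 7.69, 7.81 and 7.34 in KO. It fell by 0.53 in CK versus WT (limma adjusted p 0.00109). Its KO versus WT difference of 0.21 was not called (limma adjusted p 0.125), and without KO replicate 2 or 3 it was 0.11 or 0.34, with limma adjusted p of 0.42 and 0.00189. Cdh23, known from the tip links of hair cells, was dim, with means of 6.74, 7.47 and 6.64 in WT, CK and KO.

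**Figure D1:**
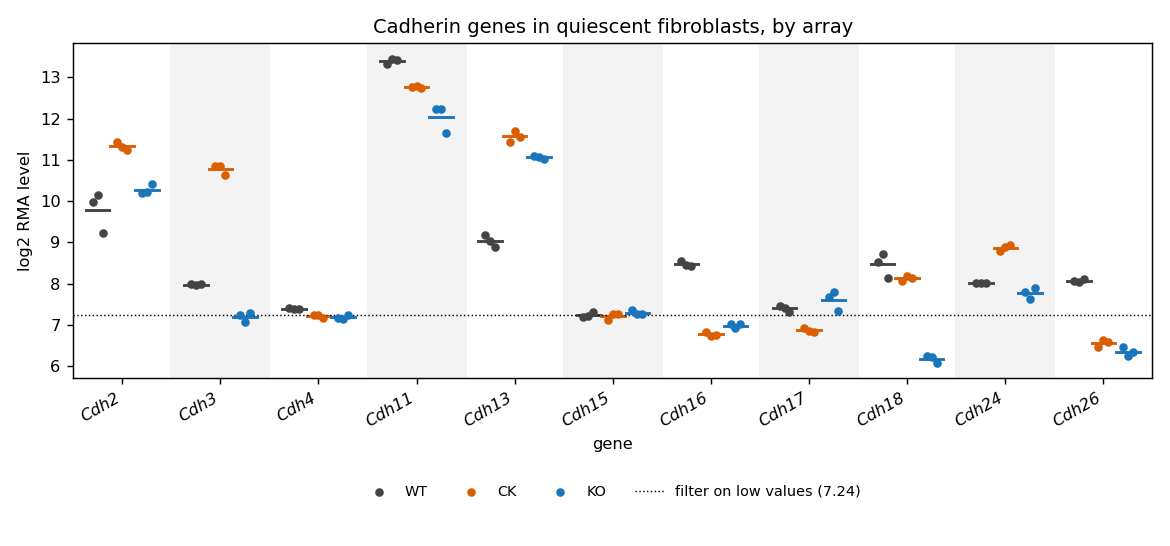
Log2 RMA level (vertical axis) of the cadherin genes that passed the filter or differed by at least 1 between genotype means, with 1 point per array, short bars for genotype means and a dotted line at 7.24, the filter on low values. Cdh3, Cdh2 and Cdh24 were highest on the 3 CK arrays, Cdh13 was higher on all mutant arrays, and Cdh11 and Cdh18 were lowest on the 3 KO arrays.

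The delta protocadherins, single-gene protocadherins that work in cell sorting, migration and axon growth, held the largest KO difference of the 57 genes. Of all 9 without the filter, 7 were called lower and 0 higher in KO versus WT, against 16.4% and 17.2% of all genes, and 6 lower and 1 higher in CK versus WT, against 21.6% and 20.7%. Among the 5 that passed the filter, 5 fell in KO versus WT, where 24.6% of tested genes fell. In CK versus WT 4 of these fell and 1 rose, where 32.1% and 30.7% of tested genes did. Promoters are printed for the 4 past the filter whose genotypes were fully separate, Pcdh7, Pcdh18, Pcdh19 and Pcdh9. These genes shared a fall in KO but took 3 different orders of genotypes. The sequences are from RefSeq, assembly GRCm38.p6, and run 5′ to 3′ from 250 bases before each gene's start to 50 after it. Positions are chr5:57717831-57718130 on the plus strand for Pcdh7, chr3:49757267-49757566 on the minus strand for Pcdh18, chrX:133688944-133689243 on the minus strand for Pcdh19, and chr14:93890630-93890929 on the minus strand for the first of 2 Pcdh9 promoters. Capitals mark CCAAT, the CCAAT box, and CAGGTG, an E-box of the kind that Snail and Zeb repressors bind, each searched on both strands.
Pcdh7: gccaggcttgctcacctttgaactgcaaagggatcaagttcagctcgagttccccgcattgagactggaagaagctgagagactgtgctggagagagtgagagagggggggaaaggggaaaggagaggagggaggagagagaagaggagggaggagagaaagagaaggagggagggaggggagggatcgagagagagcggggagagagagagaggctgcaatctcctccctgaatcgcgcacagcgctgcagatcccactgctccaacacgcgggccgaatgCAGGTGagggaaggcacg
Pcdh18: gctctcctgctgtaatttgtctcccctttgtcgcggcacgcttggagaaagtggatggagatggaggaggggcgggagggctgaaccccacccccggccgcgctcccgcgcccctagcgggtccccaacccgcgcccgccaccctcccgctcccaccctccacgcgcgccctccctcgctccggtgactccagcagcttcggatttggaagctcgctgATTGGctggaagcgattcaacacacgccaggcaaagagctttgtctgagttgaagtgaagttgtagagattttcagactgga
Pcdh19: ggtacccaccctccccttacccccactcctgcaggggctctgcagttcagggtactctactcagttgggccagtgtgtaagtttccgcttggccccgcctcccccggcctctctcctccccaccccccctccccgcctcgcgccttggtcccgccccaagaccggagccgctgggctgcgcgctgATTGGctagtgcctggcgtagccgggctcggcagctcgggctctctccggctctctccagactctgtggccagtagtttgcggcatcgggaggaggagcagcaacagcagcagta
Pcdh9: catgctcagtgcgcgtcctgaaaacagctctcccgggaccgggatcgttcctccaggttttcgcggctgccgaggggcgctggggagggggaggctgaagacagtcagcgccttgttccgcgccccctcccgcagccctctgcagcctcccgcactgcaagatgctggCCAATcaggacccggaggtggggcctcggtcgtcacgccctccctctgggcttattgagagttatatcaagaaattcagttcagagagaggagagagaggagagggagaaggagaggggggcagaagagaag

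Pcdh18, Pcdh19 and Pcdh9 each hold 1 CCAAT box, which reads ATTGG on the printed strand of Pcdh18 and Pcdh19, and no CAGGTG. Pcdh7 holds 1 CAGGTG, starting at base 283 of the window, and no CCAAT. Over all 32851 promoters in the table, 37.4% hold CCAAT and 20.2% hold CAGGTG on either strand. The table has 25 promoters for 22 of the cadherin and protocadherin genes, and 17 of the 25 hold CCAAT and 5 hold CAGGTG. Those 5 belong to Cdh7, Pcdh15 and Pcdh7. The motifs do not overlap each other in these 4 windows. These matches describe letters in a window and are no evidence of a bound site.

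Pcdh7 (a protocadherin whose tail binds protein phosphatase 1) read 11.53, 11.46 and 11.29 in WT, 10.30, 10.27 and 10.30 in CK, and 7.42, 7.35 and 7.31 in KO. The KO arrays were close to the filter level, CK lay between, and no groups overlapped. In KO the measured level was lower than WT by 16.7-fold (log2 difference -4.07 with SE 0.07, limma adjusted p 1.96e-11), and CK was 2.19-fold below WT (limma adjusted p 1.55e-07). Pcdh18, first described as a partner of the adaptor Dab1, had the same order of genotypes. Pcdh18 read 12.57, 12.57 and 12.53 in WT, 11.32, 11.29 and 11.37 in CK, and 10.29, 10.38 and 10.20 in KO. It was 4.8-fold lower in KO (log2 difference -2.26 with SE 0.06, limma adjusted p 2.84e-10) and 2.35-fold lower in CK (limma adjusted p 2.56e-08).

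Pcdh19, an X-linked protocadherin that works beside N-cadherin and is mutated in a form of epilepsy, moved in opposite directions in the mutants. It read 9.61, 9.75 and 9.53 in WT, 10.38, 10.03 and 10.07 in CK, and 8.38, 8.38 and 7.97 in KO. All CK arrays were above WT and all KO arrays below it. It rose by 0.53 in CK (SE 0.12, limma adjusted p 0.00347) and was 2.61-fold lower in KO (log2 difference -1.39, limma adjusted p 5.48e-06), and the direct CK versus KO difference was 1.92. For Pcdh9, a delta protocadherin of the brain, CK was the lowest genotype. Pcdh9 read 9.90, 9.79 and 9.70 in WT, 7.65, 7.81 and 7.49 in CK, and 8.97, 8.97 and 8.94 in KO. CK was lower than WT by 4.44-fold (log2 difference -2.15 with SE 0.08, limma adjusted p 5.56e-09) and KO 1.79-fold below WT, and a second Pcdh9 probe set gave -2.26 and -0.85.

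Pcdh17, known from circuits of the basal ganglia, fell by 0.52 in CK and fell by 0.40 in KO, from a WT mean of 8.08. Pcdh10, a delta protocadherin below the filter, read 7.66, 7.81 and 7.48 in WT, 6.83, 6.82 and 6.72 in CK, and 6.62, 6.52 and 6.67 in KO. As with Pcdh7 and Pcdh18, WT was highest and KO lowest with no overlap. In the RefSeq gene order Pcdh10 and Pcdh18 are separated on chromosome 3 by Pabpc4l alone. Pcdh1 had dim means of 6.74 in WT, 6.45 in CK and 6.31 in KO. Pcdh8 and Pcdh11x stayed within 0.21 between genotype means.

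Pcdh15, the tip-link partner of Cdh23, read 7.94, 7.52 and 7.91 in WT, 7.50, 7.52 and 7.47 in CK, and 7.34, 7.36 and 7.37 in KO. KO lay below all WT arrays, and CK overlapped WT through WT replicate 2. It fell by 0.44 in KO (limma adjusted p 0.00337). The CK versus WT difference of -0.29 (limma adjusted p 0.0217) was not called without WT replicate 1, without WT replicate 3 or without CK replicate 3, at -0.22, -0.23 and -0.28. A second Pcdh15 probe set differed more, by -1.41 in KO and by -1.14 in CK. Its mean over the 9 arrays was lower, at 7.22 against 7.55, but its WT mean was higher, at 8.07 against 7.79. Pcdh12, an endothelial protocadherin, and Pcdh20 were dim, at WT means of 7.03 and 6.02.

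**Figure D2:**
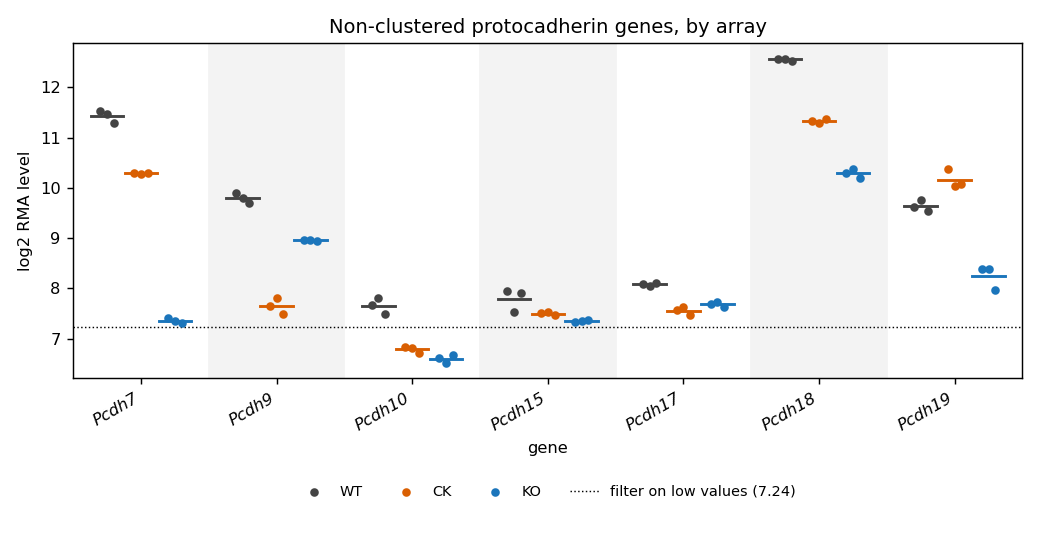
Log2 RMA level (vertical axis) of the protocadherin genes outside the clusters that passed the filter or differed by at least 1 between genotype means, with 1 point per array, short bars for genotype means and a dotted line at 7.24, the filter on low values. Pcdh7 and Pcdh18 descend from WT through CK to KO, Pcdh9 is lowest in CK, and Pcdh19 is highest in CK.

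The 22 beta protocadherins are single-exon genes in a row between the alpha and gamma clusters, numbered in their order along chromosome 18. The beta genes resemble each other closely, and a probe set may bind RNA of more than 1 of them, so values of single genes are uncertain. No alpha or gamma gene has a probe set of its own. The 1 probe set shared by 14 alpha genes was dim, with WT, CK and KO means of 6.63, 6.51 and 6.44. Pcdhb1, at the start of the row, was dim, with means of 5.64, 5.58 and 5.65, and was called in no comparison. Of the other 21 genes, 17 passed the filter, and Pcdhb3, Pcdhb9, Pcdhb10 and Pcdhb12 did not.

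In CK, the beta genes from Pcdhb2 to Pcdhb14 were all lower than in WT, whereas those from Pcdhb15 to Pcdhb22 went in both directions. This division was drawn after the values were seen, so the counts within it were partly fixed by that choice. Of all 22 beta genes without the filter, 14 were called lower, 3 higher and 5 not called in CK versus WT. Over all genes 21.6% were called lower and 20.7% higher. In CK versus KO the beta counts were 15 lower and 5 higher, against 21.6% and 19.9%. All 13 genes from Pcdhb2 to Pcdhb14 were called lower in CK versus WT without the filter, where 21.6% of all genes were called lower. In 12 of them the fall was at least 1, as in 3.85% of all genes, and over the 13 genes the difference ranged from -3.04 to -0.85 with a median of -1.55. In each of the 13, every CK array lay below every WT array and every KO array. Arrays failed to overlap, in either direction, in 48.5% of all genes for CK versus WT and in 48.8% for CK versus KO. The CK versus KO differences of the 13 had a median of -1.33, and 10 were falls of at least 1, as in 3.49% of all genes. Of the 8 genes from Pcdhb15 to Pcdhb22, 3 rose, 1 fell and 4 were not called in CK versus WT, with a median of -0.04. Without the filter 20.7% of all genes rose and 21.6% fell.

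The largest fall was in Pcdhb6, which read 9.47, 9.56 and 9.38 in WT, 6.33, 6.62 and 6.33 in CK, and 7.71, 7.70 and 7.56 in KO. CK lay below the filter level and KO between CK and WT, with no overlap. The measured CK versus WT difference was -3.04 (SE 0.09, limma adjusted p 8.16e-10), and KO was 3.52-fold below WT (limma adjusted p 3.75e-08). Pcdhb13 had the same order, at 9.32, 9.35 and 8.93 in WT, 6.87, 6.97 and 6.88 in CK, and 7.74, 7.75 and 7.69 in KO. The measured differences from WT were -2.29 in CK and -1.47 in KO (limma adjusted p 1.51e-08 and 5.34e-07). Pcdhb14 followed, at 9.32, 9.43 and 9.27 in WT, 7.91, 8.10 and 7.95 in CK, and 8.79, 8.88 and 8.76 in KO, and CK stayed above the filter level there.

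In a second set of beta genes KO was the highest genotype. Pcdhb4 read 8.35, 8.31 and 8.08 in WT, 7.14, 6.88 and 7.03 in CK, and 9.22, 9.34 and 8.72 in KO. All KO arrays lay above WT and all CK arrays below it. It rose by 0.84 in KO (SE 0.15, limma adjusted p 0.000698) and fell by 1.24 in CK (limma adjusted p 3.09e-05). Pcdhb2 read 8.01, 8.17 and 7.51 in WT, 6.38, 6.37 and 6.19 in CK, and 8.87, 8.98 and 8.17 in KO. Its KO replicate 3 only equalled WT replicate 2 to 2 decimals, and the KO rise of 0.78 had a limma adjusted p of 0.0104. Pcdhb11 rose by 0.49 in KO (limma adjusted p 0.0153), but was not called without WT replicate 3, at 0.38, or without KO replicate 2, at 0.44.

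Pcdhb7 had a KO versus WT difference of -0.59 (limma adjusted p 0.0251), with overlapping arrays. It was not called without WT replicate 1 or 2, at -0.43 and -0.47, or without KO replicate 1 or 3, at -0.59 and -0.53. Pcdhb5 and Pcdhb8 were not called in KO versus WT, at 0.17 and -0.07, while in CK they fell by 1.17 and by 1.81. The dim genes Pcdhb3, Pcdhb9, Pcdhb10 and Pcdhb12 had CK means of 5.66, 5.68, 5.96 and 6.37, against WT means of 7.70, 7.23, 6.81 and 7.43. Their KO means of 8.04, 7.50, 7.01 and 7.70 were not called different from WT even without the filter.

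Further along the row, Pcdhb15 and Pcdhb16 were still lowest in CK. Pcdhb15 read 9.68, 9.59 and 9.56 in WT, 9.39, 9.39 and 9.59 in CK, and 10.21, 10.22 and 10.26 in KO. KO stood above both others, by 0.62 over WT (limma adjusted p 1.71e-05), while CK overlapped WT. The CK versus WT difference of -0.15 was not called, but without CK replicate 3 it was -0.22 with a limma adjusted p of 0.00806. Pcdhb16 fell by 0.81 in CK (limma adjusted p 8.67e-06), and its KO difference of 0.13 was not called, but without KO replicate 3 it was 0.21 with a limma adjusted p of 0.0319. The last genes of the row had the reverse order, with CK highest and KO lowest. Pcdhb21 read 8.45, 8.45 and 8.21 in WT, 8.84, 8.90 and 8.99 in CK, and 7.70, 7.77 and 7.74 in KO, with no overlap. It rose by 0.54 in CK (SE 0.07, limma adjusted p 8.31e-05) and fell by 0.63 in KO (limma adjusted p 3.61e-05).

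Pcdhb22 rose by 0.60 in CK (limma adjusted p 3.6e-05) and fell by 0.27 in KO (limma adjusted p 0.00933). Pcdhb20 rose by 0.33 in CK (limma adjusted p 0.00926), and its KO versus WT difference of -0.19 was not called. That difference was called without CK replicate 3, with array weights and in a fit of 6 arrays (limma adjusted p 0.0282, 0.0365 and 0.038). Pcdhb18 and Pcdhb19 fell by 0.28 and by 0.58 in KO versus WT. In CK versus WT they were not called, at 0.05 and -0.14, but without WT replicate 3 the Pcdhb19 difference was -0.24 with a limma adjusted p of 0.00835. Pcdhb17 fell by 0.36 in KO (limma adjusted p 0.0241), but was not called without WT replicate 2, at -0.26, or without KO replicate 3, at -0.25. Its CK versus WT difference of -0.27 was not called. That difference was called without WT replicate 3, at -0.35, and without KO replicate 3 (limma adjusted p 0.0364 and 0.0334). Leaving out both of these arrays, array weights and a fit of 6 arrays also gave a call (limma adjusted p 0.0141, 0.0218 and 0.0453).

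**Figure D3:**
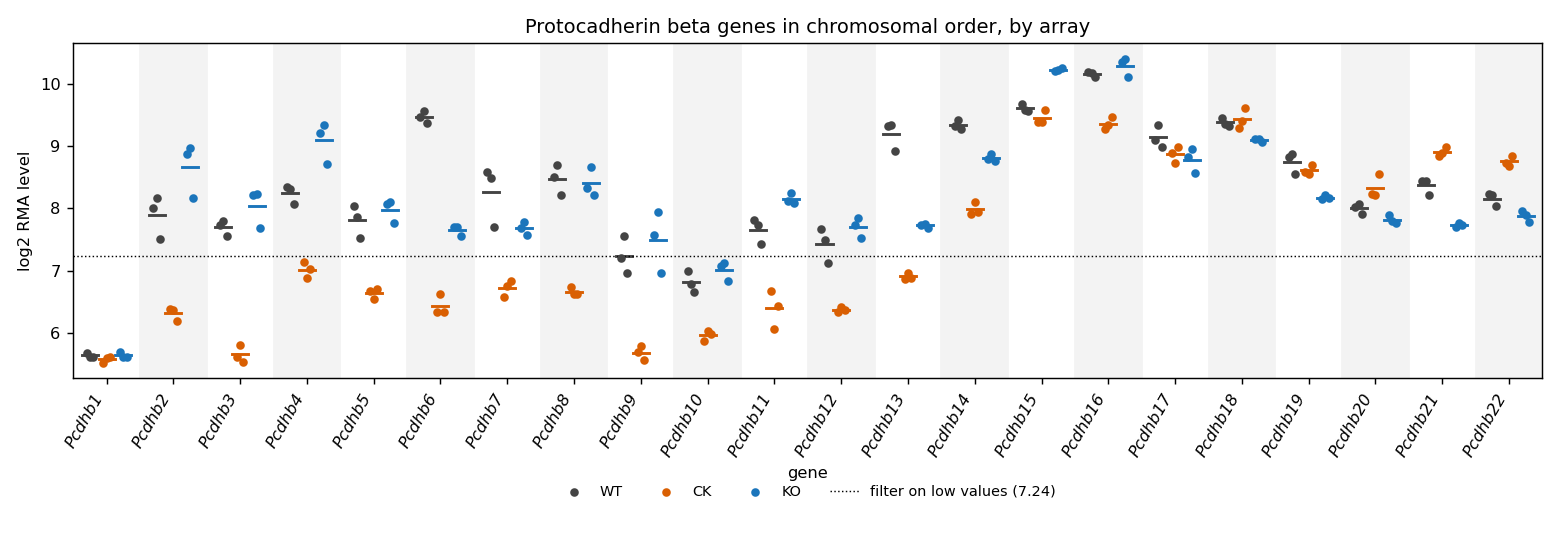
Log2 RMA level (vertical axis) of the 22 beta protocadherin genes in their order along the chromosome, with 1 point per array, short bars for genotype means and a dotted line at 7.24, the filter on low values. From Pcdhb2 to Pcdhb14 and for Pcdhb16 all CK arrays lie below all WT and KO arrays, and from Pcdhb20 to Pcdhb22 they lie above them.

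**Figure D4:**
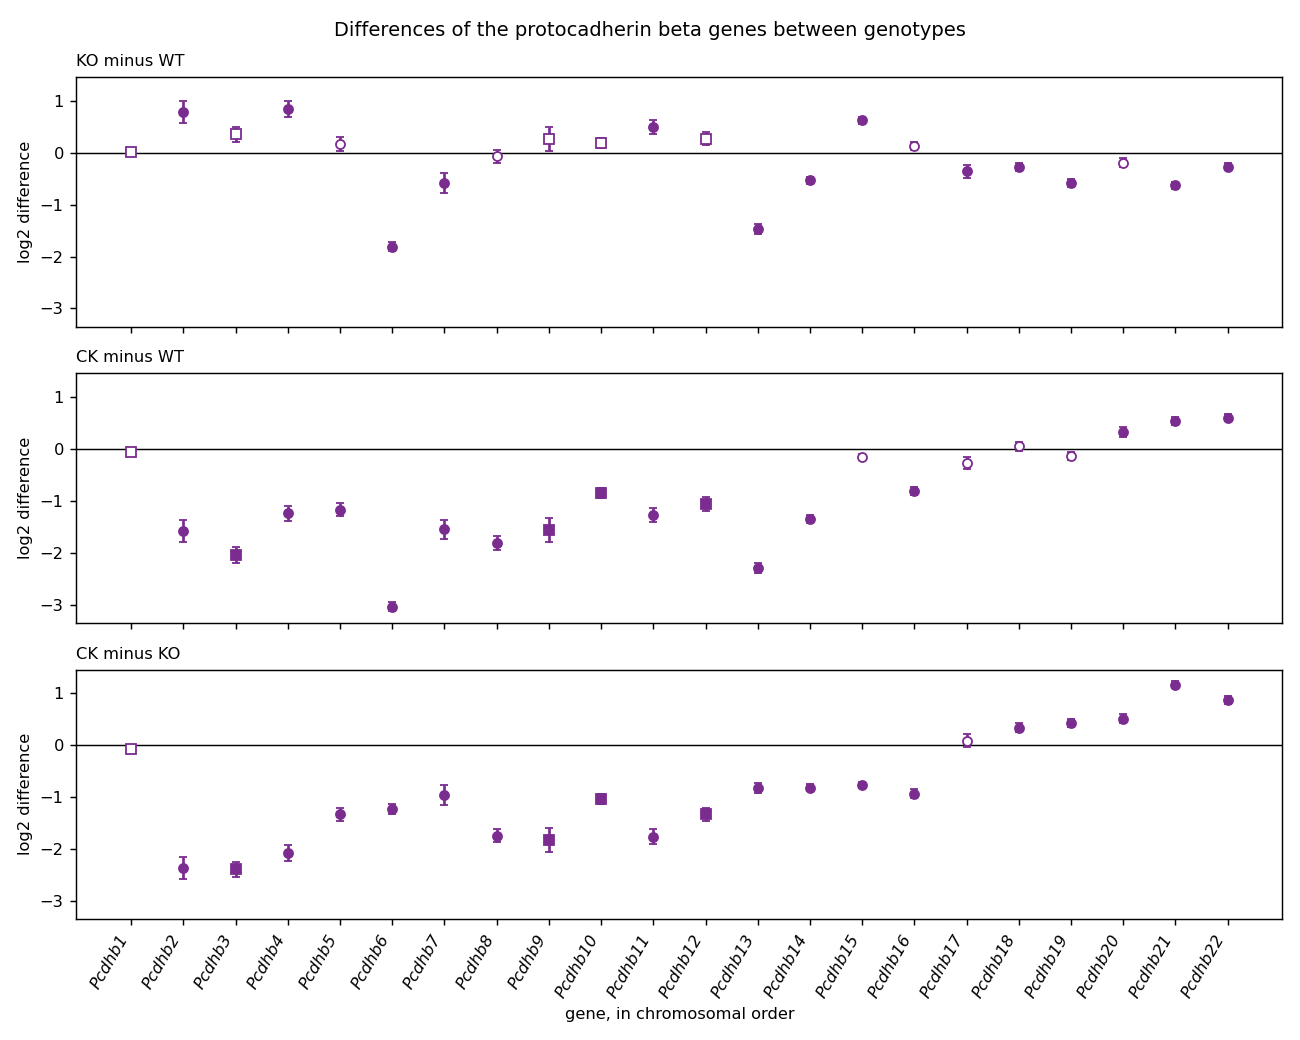
Log2 differences (vertical axis) of the 22 beta protocadherin genes in chromosome order for KO minus WT, CK minus WT and CK minus KO, which share arrays, with bars for the standard error. Circles are genes past the filter, squares are genes below it with values from the fit without the filter, filled symbols are called and open ones are not. CK minus WT is negative from Pcdhb1 to Pcdhb17 and for Pcdhb19, and positive for Pcdhb18 and from Pcdhb20 to Pcdhb22.

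The arrays of a genotype were not alike over the beta genes. WT replicate 3 was the lowest WT array for 22 of 22 genes, by a mean deviation of -0.18 from the group mean, against -0.03 over all tested genes. KO replicate 3 was the lowest KO array for 19 of 22, with a mean deviation of -0.16 against -0.01. Without both arrays, 5 of the 33 tested cadherin and protocadherin genes were called higher and 21 lower in KO versus WT, and 8 and 21 in CK versus WT. The counts in CK versus KO were 14 and 14. The shares of all tested genes called higher and lower in that fit are not given, so these counts have no background of their own.

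Genes around the protocadherin clusters, listed after the beta values were seen, are given beside them without a test against them. Of 10 tested neighbours by RefSeq gene order, 4 were called lower in CK versus WT and 0 higher, where 32.1% of tested genes were called lower, and their differences, with those of 3 dim neighbours, ran from -0.57 to 0.10. Zmat2, just before the alpha cluster, fell by 0.54 and Hars2 beside it by 0.57 (limma adjusted p 1.16e-05 and 4.51e-05). Taf7, a single-exon gene that lies within the clusters, had means of 7.24 in WT and 7.22 in CK and was not called (limma adjusted p 0.86). These means lie at the filter level, where signal above background is not shown. Diaph1 and Hdac3, just after the gamma cluster, were not called in CK versus WT either, at -0.16 and -0.11, although their CK arrays lay below all WT arrays. Also called lower in CK versus WT were Ik, before the alpha cluster, at -0.30, and Fchsd1, after the gamma cluster, at -0.29 (limma adjusted p 0.00847 and 0.000951). In CK versus KO, 6 of the 10 tested neighbours were called lower and 1 higher, where 32.7% and 29.5% of tested genes were. Diaph1 and Hdac3 were among those called lower there, at -0.19 and -0.18 (limma adjusted p 0.0454 and 0.00721).

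The proteins that cadherins work with were followed by lists chosen with earlier results of these data known, and their counts stand against the same shares of all tested genes as above. Of 26 tested catenins and adhesion complex partners, 14 rose and 4 fell in KO versus WT, with a median of 0.21, and 11 rose and 7 fell in CK versus WT, with a median of 0.10. Jup (plakoglobin, the catenin shared by adherens junctions and desmosomes) read 9.15, 9.00 and 8.83 in WT, 11.59, 11.86 and 11.81 in CK, and 9.85, 9.78 and 9.90 in KO. As with Cdh3, the CK arrays stood far above the others, and Jup rose 6.79-fold in CK (limma adjusted p 2.06e-09) and 1.81-fold in KO. Pkp2 (plakophilin 2, a desmosomal plaque protein) rose in CK, from 7.12 in WT to 9.77, a measured difference of 2.64 (limma adjusted p 5.08e-09), and was 7.37 in KO. The adhesion receptors Nectin1 and Nectin2 rose by 0.77 and 1.08 in CK, while in KO they fell by 0.57 and by 0.49.

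Genes that were highest in KO included Plekha7, which binds p120-catenin, and Tjp1 (ZO-1, a junction scaffold), higher than WT by 1.35 and 1.10. The Plekha7 means of 7.14 in WT and 7.27 in CK lay near the filter level. Afdn (afadin, the actin link of nectins) rose in both mutants, by 1.04 in KO and 0.69 in CK. Ctnnal1, a relative of alpha-catenin, rose by 1.39 in KO and fell by 0.95 in CK. Vezt (vezatin) fell by 0.81 in CK and rose by 0.18 in KO.

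Of 8 tested genes from the rest of the cadherin superfamily, 2 rose and 2 fell in KO versus WT, and 3 rose and 2 fell in CK versus WT. Dchs1 (a giant cadherin that is the ligand of Fat4) read 10.98, 11.00 and 10.89 in WT, 11.52, 11.23 and 11.38 in CK, and 7.60, 7.34 and 7.39 in KO. Only KO was near the filter level, at a measured difference of -3.51 from WT (limma adjusted p 2.9e-10), while CK rose by 0.42. Fat1, a giant cadherin that regulates actin, rose by 1.06 in KO and fell by 0.24 in CK. Fat4 fell by 0.83 in CK and was not called in KO, at -0.28. Cdhr4, a cadherin-related gene, fell by 0.99 in KO and was not called in CK, at 0.20. Celsr2, a planar polarity cadherin, rose by 0.50 in CK and was not called in KO, at -0.10. Clstn1 (calsyntenin 1) rose by 0.48 in KO and by 0.41 in CK.

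Of 11 tested transcription factors known to repress E-cadherin, 1 rose and 8 fell in KO versus WT, with a median of -0.37, and 3 rose and 6 fell in CK versus WT, with a median of -0.33. Snai1 (Snail) fell by 0.58 in KO and by 0.99 in CK (limma adjusted p 5.94e-06 and 7.75e-08), Snai2 (Slug) by 0.37 and by 0.86, and Twist1 by 0.66 and by 1.19. The gene that rose in KO was Foxc2, by 1.38 (limma adjusted p 5.02e-07), and it was not called in CK, at -0.11. Klf8 fell by 1.52 in KO (limma adjusted p 1.96e-08) and fell by 1.21 in CK, with a KO mean of 7.11. Twist2 moved in opposite directions, falling by 1.09 in KO and rising by 0.91 in CK. Zeb2 fell by 1.02 in KO and had the same mean of 9.81 in WT and CK. E-cadherin itself had means of 6.77 in WT, 6.68 in CK and 7.51 in KO.

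Of 23 tested genes for the shedding, processing and turnover of cadherins, 10 rose and 6 fell in KO versus WT, and 8 rose and 8 fell in CK versus WT. Mmp9, a gelatinase, fell by 3.36 in KO and by 1.46 in CK (limma adjusted p 1.94e-10 and 8.87e-08), with a KO mean of 7.47 near the filter level. The membrane protease Mmp14 fell by 1.35 in KO and rose by 0.44 in CK, and Adam12, a sheddase, fell by 1.62 and rose by 0.57. Adam9, another sheddase, rose by 0.38 in KO and by 0.74 in CK. Pcsk5, a proprotein convertase, fell by 2.11 in KO and fell by 2.45 in CK, to means of 7.28 and 6.93, near and below the filter level. Its relative Pcsk6 rose by 1.00 in KO and fell by 0.30 in CK.

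**Figure D5:**
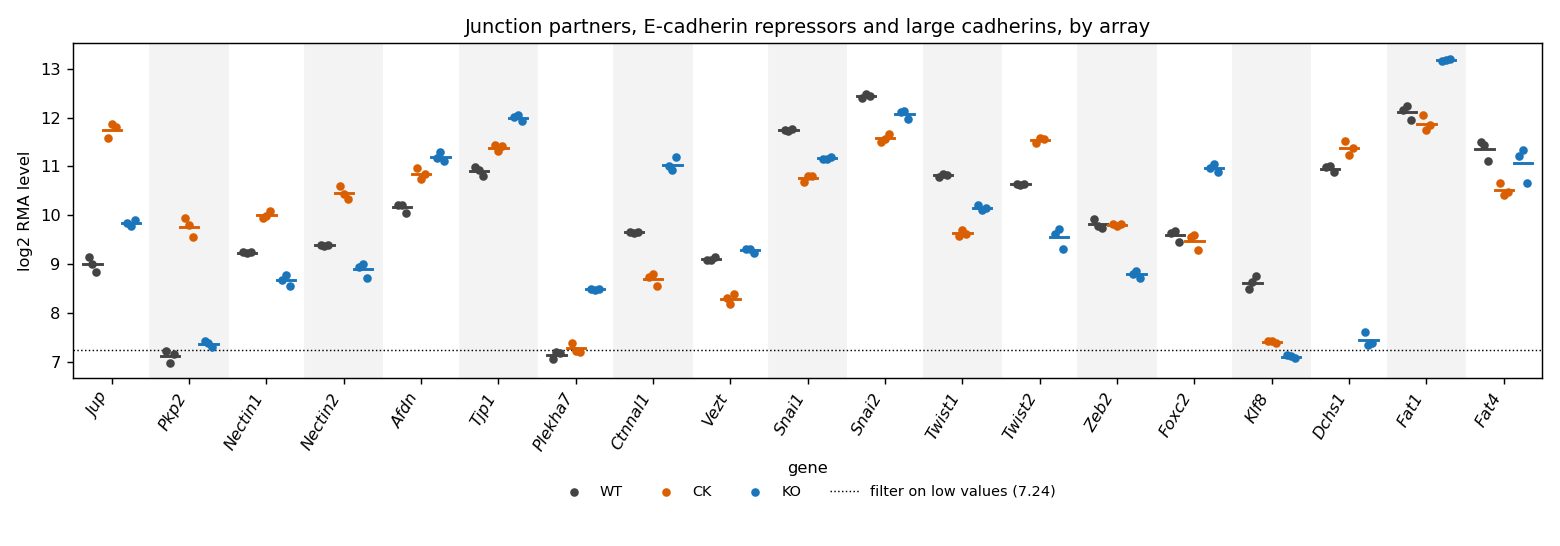
Log2 RMA level (vertical axis) of named junction partners, repressors of E-cadherin and large cadherins, with 1 point per array, short bars for genotype means and a dotted line at 7.24, the filter on low values. Jup and Pkp2 are highest on the 3 CK arrays, Snai1, Snai2 and Twist1 are highest on the WT arrays, and Dchs1 is near the filter level only in KO.

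Marker lists of other cell types varied between genotypes, and their part in the cadherin results was not tested. Of 16 endothelial markers, among them Cdh5, 6 passed the filter. Of these 6, 1 rose and 4 fell in KO versus WT, with a median of -0.76, where 26.6% and 24.6% of tested genes did. In CK versus WT 2 rose and 3 fell, with a median of -0.27, against 30.7% and 32.1%. The summed level of the 16 was 11.95 to 12.07 in WT, 11.51 to 11.70 in CK and 11.85 to 11.89 in KO. Within that list Eng was 10.50, 7.65 and 7.81 in WT, CK and KO, Erg was 7.84, 7.17 and 10.81, and Flt1 was 8.68, 9.97 and 7.32. Of 15 neural markers, 4 passed, with sums of 12.27 to 12.48, 12.66 to 12.83 and 12.16 to 12.21. Their brightest genes in WT, CK and KO were Ncam1 at 11.35, 12.08 and 11.70, Map2 at 10.57, 9.35 and 7.63, and Stmn2 at 8.02, 8.19 and 6.27. Of 13 macrophage markers, 2 passed, with sums of 11.40 to 11.48, 10.55 to 10.60 and 10.62 to 10.80. Cd68 was 10.64, 8.59 and 7.99, Lyz2 6.90, 7.59 and 8.83, and Cd14 7.87, 6.69 and 6.66. The 15 muscle markers, among them Cdh15, summed to between 11.05 and 11.12 on every array, and 6 of them passed. Tnnt3, Acta1 and Ckm were the brightest, with WT means of 8.33, 8.10 and 7.77.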

How the data were processed

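The deposited table holds 34760 probe sets on 9 arrays as log2 expression. The authors ran RMA in the affy package, as the submitters' processing notes list. Their versions and any filter are not given in the sources used here. RMA includes quantile normalization, which hides a change in total RNA per cell. In the deposited table the values carry no decimal mark and are strings of 10 to 15 digits, which read as a score with no fixed range. With a mark placed behind the first digit, no string that starts with 1 exceeds 1.44 and no other lies under 4.28, so the former were taken as log2 values of 10 or more, which gave 4.28 to 14.4. In 2242 sets of 1 group's arrays for a probe set that lay on both sides of 10, the median range was 0.263 with this step, 8.92 without it and 0.133 in the others.

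Gene names came from the platform annotation, in which 21640 probe sets have 1 symbol, 1321 several and 11799 none. Only those with 1 symbol were used. They cover 19937 genes, and the probe set with the highest mean stood for each of 954 genes with more than 1. RefSeq's gene table (assembly GRCm38.p6) held all 57 genes and served for names, chromosomes and gene order. Promoters were found for 22 of the 57. The test was limma 3.58.1 (R 4.3.3), fitting a mean for each genotype to the 9 arrays together (6 residual and 4.1 prior degrees of freedom, median residual SD 0.0875). Tables were made with pandas 2.3.3. A summed level is log2 of the sum of the linear values. The fit was tested on simulated data in which each array varied independently, so that test does not cover arrays that share a culture. Values tied on all 3 arrays of a group made up 1.21% to 1.47% of probe sets.

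The genes and lists were chosen with earlier results of these data known. Named were all genes past the filter, those below it whose genotype means differed by at least 1, up to 4 called genes with the smallest p per partner list and comparison, and up to 3 genes with the highest mean per marker list. Other genes below the filter, second probe sets and neighbours of the clusters were named after their values were seen. Alternatives were other filters, probe set rules, normalizations, variance models and thresholds, fits of 6 arrays, array weights, a replicate block and leaving out each array. Arrays of the same number correlated in their deviations at -0.30 to 0.36 over 9 pairs, and those of different numbers at -0.34 to 0.25 over 18. Numbers were therefore not taken to pair arrays. The highest value, 0.36, was that of WT replicate 3 with KO replicate 3. The number of arrays limits the precision. No protein sequences were used.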

Additional observations from a re-analysis of the deposited data

How the results depend on the processing

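Across 22 alternatives, the counts of cadherin and protocadherin genes called stayed within 1.5 times the value reported, apart from those given here. In KO versus WT, 8 genes were called higher with array weights and 3 at an adjusted p under 0.01. The shares of all tested genes called higher under these settings are not given, so these counts too have no background of their own. With a filter at the 50th percentile, which tests fewer genes, 13 were called lower in KO versus WT, 7 in CK versus WT and 5 in CK versus KO. The counts called higher with that filter were 4, 7 and 12. Lower calls thus still outnumbered higher ones in KO versus WT but not in CK versus WT. How many cadherin and protocadherin genes passed that filter is not given, so the shares called cannot be compared. A rule of at least 1 on the log2 scale, added after seeing the data, left 1, 3 and 8 genes called higher and 8, 13 and 7 lower in the comparisons KO versus WT, CK against WT and CK against KO. Over all genes it left 1049, 1293 and 1489. It also left 24 partner-list genes called in at least 1 comparison, where 58 were called before. With each array left out in turn, KO versus WT gave 4 to 7 genes higher and 19 to 22 lower, CK versus WT 8 higher and 18 to 21 lower, and CK versus KO 14 to 15 each way. Over all genes the same fits gave 5298 to 6227, 6959 to 7630 and 6788 to 7523, and 57 to 60 partner-list genes. With the replicate block, 5 were called higher and 21 lower in KO versus WT, 8 and 20 in CK versus WT, and 14 and 14 in CK versus KO. The labels share only a number between arrays, and the block called 5979, 7377 and 7291 of all genes. Of 99 differences of single genes, 79 kept their call under every alternative that gave a value. Over 2034 such values, 39 were no longer called, 29 became called and 0 reversed. The cause was not tested. Low signal limits the 24 genes below the filter.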
